A study of Mus musculus with 9 samples.

Results

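The genes described here code for the main proteins of mouse milk and of the membrane around its fat droplets. They were taken by name from the authors' deposited count table and comprise 10 of its 54456 gene names: the caseins Csn1s1, Csn1s2a, Csn2 and Csn3, the whey and mucosal proteins Wap, Lalba, Ltf and Glycam1, and the milk fat globule genes Btn1a1 and Xdh. Of these, 8 had enough counts for a test, while Csn2 and Glycam1 were filtered out as too low.

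Milk proteins are made by the luminal cells of the mammary gland, which face the duct and alveolar lumen. Contractile basal cells lie around them and squeeze the milk out. In pregnancy and lactation prolactin binds its receptor, the kinase JAK2 phosphorylates STAT5, and STAT5 together with the glucocorticoid receptor, ELF5 and C/EBP beta turns on the casein and whey protein genes. Caseins carry calcium and phosphate in micelles, whey proteins stay in solution, and fat leaves the cell in droplets wrapped in apical membrane.

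The source was mammary epithelium of wild-type mice, whose cells were separated by flow sorting, aggregated and sequenced as bulk RNA. Mixed aggregates held basal and luminal cells in a 50% mixture, luminal aggregates held luminal cells alone and basal aggregates held basal cells alone, with 3 libraries of each kind. All 9 were collected after migration in 80% Matrigel towards FGF10-soaked heparin sulfate beads of 100 to 150 µm, at 56 h by the treatment label and at 55 h by the titles. Every kind of aggregate was exposed to FGF10, a growth factor for mammary epithelium, and the medium as labelled held insulin, transferrin and selenium and named no prolactin or glucocorticoid. For each kind of aggregate the labels give no age or reproductive stage of the animals and do not tie its libraries to separate animals or cultures, so each p-value measures only the spread between these libraries.

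Libraries held 15585324 to 19164405 counts, and 18051 genes passed the filter on low counts. Levels are given in CPM, counts relative to the scaled size of their library, and 3 counts in a library correspond to 0.152 to 0.186 CPM. A count of 0 therefore allows a level up to that value, for counting error only. Of 14 basal markers 13 were lower and 1, Igfbp5, was higher in luminal than in basal aggregates, and 7 were lower and 1 higher in mixed than in basal ones. Over all genes 12.8% were called higher and 14.4% lower in luminal against basal, and 6.39% and 7.33% in mixed against basal. With the prefix series described below as a term, the lower basal markers were 11 and 5. Krt5, a basal keratin, stood at 1083 to 1156 CPM in mixed, no more than 23.2 CPM in luminal and 1629 to 2106 CPM in basal aggregates. Krt14, the other basal keratin, still stood at 1283 to 2551 CPM in luminal libraries, against 4193 to 4877 CPM in basal ones, and its call was lost with the prefix series described next as a term (adjusted p = 0.18 by edgeR's quasi-likelihood test). All 14 summed to 12058 to 12626 CPM in mixed, 8354 to 12359 CPM in luminal and 11452 to 12904 CPM in basal libraries. Most of the luminal sums was Igfbp5, the marker that ran the other way. It alone stood at 4534 to 5255 CPM in mixed, 6907 to 9498 CPM in luminal and 611 to 700 CPM in basal libraries. Of 11 luminal markers, 10 were higher in luminal than in basal aggregates, although Krt8 still stood at 913 to 1045 CPM in basal aggregates. With the prefix series as a term 7 of the 11 were called. Krt8, Krt19 and Cd24a were lost (adjusted p = 0.33, 0.16 and 0.40 by edgeR's quasi-likelihood test). Column names of the table carry 3 prefixes that cut across the groups, whose meaning the labels do not give. Series A holds mixed 1 to 3 and basal 2, series B holds luminal 1, basal 1 and basal 3, and series C holds luminal 2 and 3. Basal 2 stood apart from the other basal libraries, among others in the transcripts named beside Csn2, and results are therefore also given without it. No series holds both mixed and luminal libraries, so that the kind of aggregate and the series cannot be told apart in that comparison.

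The promoters of 4 members are shown because these genes took different courses in these libraries, as described gene by gene further on. Of the 10 members, 7 matched the RefSeq promoter table of build GRCm38.p6, while the count table uses mm39. Each line gives the 250 bases before the RefSeq start, 5′ to 3′ on the gene's strand: Csn1s1 at chr5:87665958-87666207 on the plus strand, Csn2 at chr5:87699426-87699675, Lalba at chr15:98482684-98482933 and Wap at chr11:6638650-6638899, all 3 on the minus strand. Capitals mark matches to TTCNNNGAA or TTCNNNNGAA, spacings of the palindrome that STAT factors bind. The strand shown was searched, and both motifs read the same on the other strand.
Csn1s1: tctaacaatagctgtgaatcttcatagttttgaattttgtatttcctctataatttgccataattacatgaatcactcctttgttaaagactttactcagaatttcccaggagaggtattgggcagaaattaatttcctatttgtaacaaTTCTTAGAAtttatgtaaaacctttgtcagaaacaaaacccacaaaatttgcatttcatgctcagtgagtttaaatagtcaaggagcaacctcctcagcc
Csn2: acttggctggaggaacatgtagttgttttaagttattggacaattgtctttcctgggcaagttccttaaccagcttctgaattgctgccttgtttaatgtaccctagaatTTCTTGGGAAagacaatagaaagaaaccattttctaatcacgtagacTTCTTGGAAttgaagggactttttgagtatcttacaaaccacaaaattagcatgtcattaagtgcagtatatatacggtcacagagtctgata
Lalba: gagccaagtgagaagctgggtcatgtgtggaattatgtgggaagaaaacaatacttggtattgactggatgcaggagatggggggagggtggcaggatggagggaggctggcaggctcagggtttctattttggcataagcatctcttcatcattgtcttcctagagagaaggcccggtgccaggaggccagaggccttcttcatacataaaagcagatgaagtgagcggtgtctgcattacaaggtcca
Wap: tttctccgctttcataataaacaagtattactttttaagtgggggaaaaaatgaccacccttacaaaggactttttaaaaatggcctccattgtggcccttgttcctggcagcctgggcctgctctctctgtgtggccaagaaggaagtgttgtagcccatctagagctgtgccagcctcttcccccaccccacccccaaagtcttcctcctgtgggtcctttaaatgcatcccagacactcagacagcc

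In the Csn1s1 window TTCTTAGAA lay at bases -100 to -92 from the start. The Csn2 window held TTCTTGGAA at -93 to -85 and the longer spacing TTCTTGGGAA at -140 to -131. The Lalba and Wap windows held neither motif, and of the remaining members Glycam1 held TTCCCAGAA at -145 to -137 while Csn1s2a and Ltf held neither. In all, 3 of the 7 windows held TTCNNNGAA, against 7.02% of the 32851 promoters in the table, and 1 held TTCNNNNGAA, against 5.85%. A match describes letters and is no measured binding site, and sequence outside these windows was not searched.

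The casein genes did not move as a group. Csn3 and Csn1s1 were highest in basal aggregates, Csn1s2a was low everywhere, and Csn2 was close to absent. Csn3 codes for kappa-casein, which coats and stabilises the micelle surface (mm39 chromosome 5, 88073438 to 88080524, plus strand). It stood at 214, 147 and 114 CPM in mixed 1 to 3, at 344, 223 and 297 CPM in luminal 1 to 3 and at 877, 1051 and 793 CPM in basal 1 to 3. The 3 kinds of aggregate did not overlap, and all mixed libraries lay below all luminal ones. Luminal aggregates differed from basal by -1.65 ± 0.25 on the log2 scale (SE, adjusted p = 0.00044 by edgeR's quasi-likelihood test, as for every adjusted p here unless another tool is named), and mixed from basal by -2.52 ± 0.26 (adjusted p = 0.00014). All later differences are likewise log2 values with their SE. Mixed aggregates were also below luminal ones, by -0.86 ± 0.25 (adjusted p = 0.023). That last call was lost without luminal 1 (-0.72, adjusted p = 0.091), luminal 3 (-0.85, 0.065), mixed 2 (-0.82, 0.069) or mixed 3 (-0.68, 0.082). The level in mixed aggregates was 26.5% of the average of the luminal and basal means, a description without a test (21.9 to 30.3% over the alternatives).

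Csn1s1 codes for alpha-S1-casein, a main calcium-binding casein (chromosome 5, 87814067 to 87830437, plus strand). Its levels were 9.60, 4.43 and 11.8 CPM in mixed 1 to 3, 0.377, 1.19 and 1.61 CPM in luminal 1 to 3, and 15.1, 32.1 and 12.9 CPM in basal 1 to 3. Luminal libraries were the lowest without overlap, and the highest mixed library came just under the lowest basal one. The difference of luminal from basal aggregates was -4.24 ± 0.60 (adjusted p = 0.00027), and that of mixed from luminal aggregates was 3.02 ± 0.58 (adjusted p = 0.0035). Mixed and basal aggregates differed by -1.22 ± 0.52, which did not pass (adjusted p = 0.14). Basal 2, the highest basal library, shares its series with the mixed ones, and without it the luminal difference from basal was -3.74 and the mixed difference from basal was -0.72 (adjusted p = 0.00077 and 0.35). Its level in mixed aggregates was 81.5% of the average of the luminal and basal means, and 114% without basal 2.

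The other caseins rested on few counts. Csn1s2a, an alpha-S2-type casein (chromosome 5, 87922426 to 87936656, plus strand), had 1.31, 0.123 and 2.07 CPM in mixed 1 to 3, 0.323, 0.652 and 0.186 CPM in luminal 1 to 3, and 0.101, 0.661 and 0.344 CPM in basal 1 to 3. All 3 kinds overlapped, and none of its differences passed: 0.07 ± 1.13 for luminal from basal, 1.65 ± 1.12 for mixed from basal and 1.58 ± 1.12 for mixed from luminal (adjusted p = 0.97, 0.35 and 0.31). Csn2, beta-casein (chromosome 5, 87840483 to 87847489, minus strand), gave 13, 1 and 9 counts in mixed 1 to 3, 0 in every luminal library, and 16 in basal 2 with 0 in basal 1 and basal 3. Counts of Csn2 thus appeared in the 4 libraries of series A and in no other, within mixed as within basal aggregates. In the same 4 libraries Smr3a, a secreted protein of salivary glands chosen here after its values were seen, stood at 51.4, 40.9 and 85.5 CPM in mixed 1 to 3 and at 38.1 CPM in basal 2, against 0 in luminal libraries and at most 0.152 CPM in basal 1 and basal 3. Markers of macrophages and other leukocytes followed the same libraries: 10 to 12 of 12 were counted in mixed, 4 to 7 in luminal and 6 to 12 in basal libraries. All 12 summed to 49.7 to 75.8 CPM in mixed, 22.4 to 53.9 CPM in luminal and 4.25 to 54.7 CPM in basal libraries. Without Cd68, which luminal libraries also held, they summed to 43.8 to 68.5 CPM in mixed and 1.54 to 3.79 CPM in luminal aggregates, and in basal aggregates to 1.21 to 50.8 CPM with basal 2 at the top. The part of the series, or of such cells, in the Csn2 counts was not tested.

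**Figure D1:**
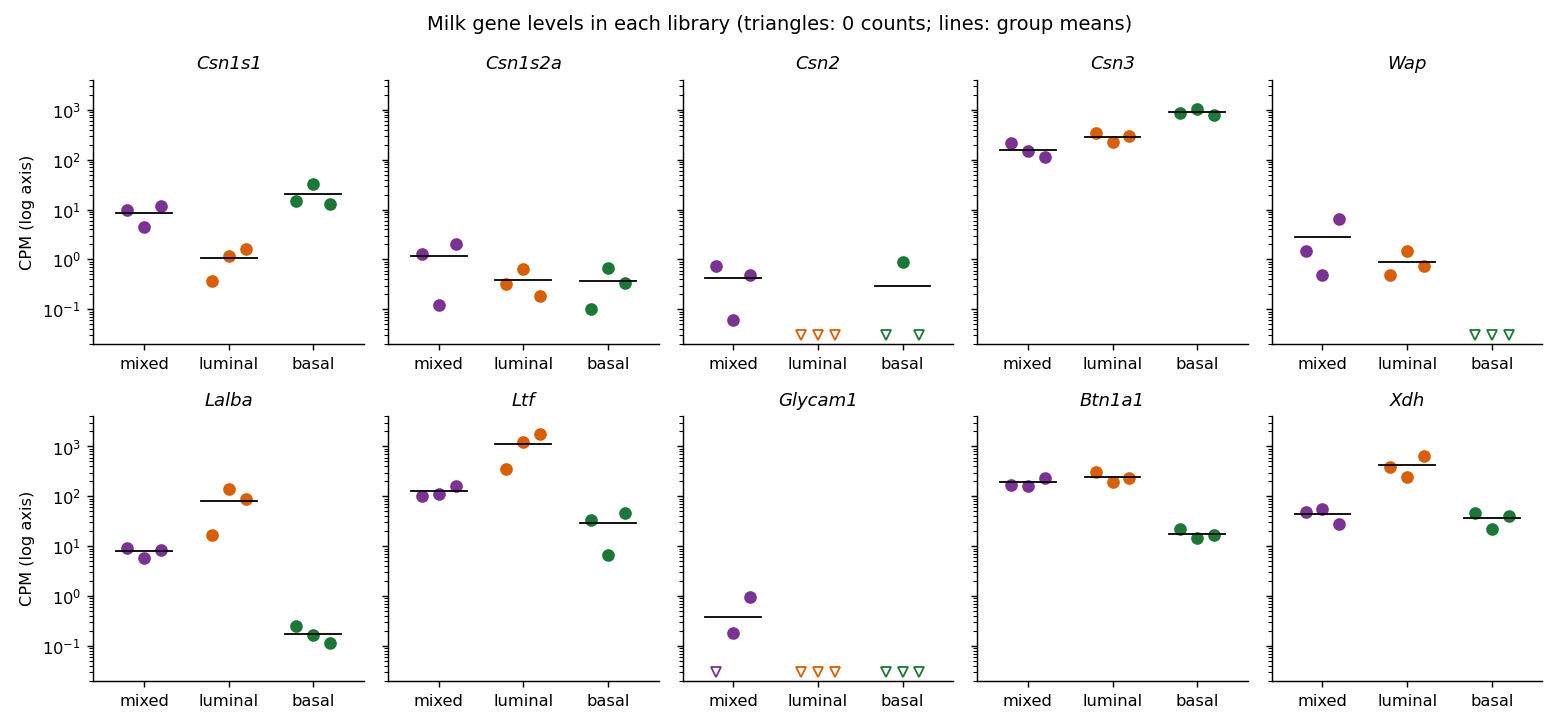
Level of each milk gene in CPM by library in mixed, luminal and basal aggregates, with 1 point per library and group means as lines, on a log axis that shows libraries at 0 counts as triangles at the bottom. Csn3 lies between 793 and 1051 CPM in basal aggregates, above all luminal and mixed libraries, while Lalba, Ltf and Btn1a1 are lowest there.

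Lalba, Wap and Ltf ran the other way and were lowest in basal aggregates. Lalba codes for alpha-lactalbumin, the whey protein that turns B4GALT1 into lactose synthase (chromosome 15, 98378281 to 98380602, minus strand). It had 9.37, 5.90 and 8.54 CPM in mixed 1 to 3, 16.4, 142 and 87.9 CPM in luminal 1 to 3, and 0.253, 0.165 and 0.115 CPM in basal 1 to 3. The basal values rest on 5, 3 and 2 counts, near the floor, and the 3 kinds did not overlap. No basal library reached the level of the filter, which Lalba passed through mixed and luminal libraries. Its calls as higher than basal therefore support nothing beyond the counts. Luminal exceeded basal aggregates by 8.77 ± 0.85 and mixed exceeded basal by 5.41 ± 0.83 (adjusted p = 1.56e-05 and 0.0018). Mixed stood below luminal aggregates by -3.37 ± 0.59 (adjusted p = 0.0022). Luminal libraries spread 8.61-fold, with luminal 1 of series B lowest. Without luminal 2 the luminal difference from basal was 8.12 and the mixed difference from luminal was -2.73. Both differences from basal missed the threshold with limma-voom (adjusted p = 0.052 and 0.22). Mixed aggregates held 19.3% of the average of the luminal and basal means, and 13.8% without luminal 1 or 30.3% without luminal 2.

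Wap codes for whey acidic protein, a protease-inhibitor-like protein of rodent milk (chromosome 11, 6585482 to 6588637, minus strand). Its levels were 1.49, 0.492 and 6.58 CPM in mixed 1 to 3 and 0.485, 1.48 and 0.745 CPM in luminal 1 to 3, and it had 0 counts in every basal library. Counts behind these levels were 26, 8 and 121 in mixed and 9, 25 and 12 in luminal libraries. All mixed and luminal libraries were above the basal ones and overlapped with each other. Against the level of 3 counts per library, luminal aggregates were at least 5.54-fold higher and mixed aggregates at least 17.5-fold higher than basal aggregates. Mixed and luminal aggregates differed by 1.65 ± 1.04 (adjusted p = 0.26), and by 0.12 without mixed 3. Wap passed the filter on low counts only through the kinds in which it was counted, so its calls as higher than basal support nothing beyond the counts. Both were lost with the series as a term (adjusted p = 0.13 and 0.16), and with only the 2 groups compared Wap was not tested. Glycam1, a mucin-like milk protein (chromosome 15, 103471186 to 103473508, minus strand), gave 0, 3 and 18 counts in mixed 1 to 3 and 0 in every luminal and basal library, too few for a test.

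Ltf codes for lactoferrin, an iron-binding protein of milk and of neutrophil granules (chromosome 9, 110848339 to 110871835, plus strand). It stood at 103, 112 and 164 CPM in mixed 1 to 3, at 358, 1256 and 1793 CPM in luminal 1 to 3, and at 34.1, 6.83 and 47.1 CPM in basal 1 to 3. Kinds did not overlap, and within luminal aggregates luminal 1 was the lowest by a wide margin. Luminal exceeded basal aggregates by 5.27 ± 0.73 (adjusted p = 0.00023), while mixed stood below luminal by -3.17 ± 0.66 (adjusted p = 0.0055) and above basal by 2.11 ± 0.64 (adjusted p = 0.049). The call of mixed against basal was lost in 10 of the 18 alternatives, with adjusted p up to 0.18 without basal 1. It held without basal 2, at 1.62 (adjusted p = 0.044). Fitted with the series as a term, mixed and luminal aggregates differed by 1.07 in the opposite direction, without passing (adjusted p = 0.42). Mixed aggregates held 21.7% of the average of the luminal and basal means.

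Since neutrophils also make lactoferrin, their markers are given beside it. Of 14 neutrophil markers 6 to 9 were counted in mixed, 4 to 9 in luminal and 4 to 9 in basal libraries. They summed to 1409 to 1617 CPM in mixed, 2386 to 3742 CPM in luminal and 430.5 to 642 CPM in basal aggregates, nearly all of it Lcn2, which mammary epithelium also makes. Without Lcn2 the sums were 17.9 to 35.4 CPM in mixed, 21.8 to 37.9 CPM in luminal and 3.09 to 10.5 CPM in basal aggregates. Prtn3, proteinase 3 of neutrophil granules, was at a low level and shared with Ltf only the highest level in luminal aggregates. It had 0.972, 1.23 and 1.47 CPM in mixed 1 to 3, 5.23, 6.28 and 3.17 CPM in luminal 1 to 3 and 2.43, 1.05 and 2.12 CPM in basal 1 to 3. The mean of Prtn3 was lowest in mixed aggregates and that of Ltf in basal ones, and luminal 3 was the lowest luminal library for Prtn3 but the highest for Ltf. Luminal libraries were the highest without overlap. It was lower in mixed than in luminal aggregates by -1.99 ± 0.56 (adjusted p = 0.022), a call lost with the series as a term (adjusted p = 0.84), and luminal against basal did not pass (1.39 ± 0.55, adjusted p = 0.084). Of the other granule genes on the list, Camp stood at 0 in all mixed libraries and at no more than 0.0539 CPM in luminal ones, and Ngp was at 0 in all luminal libraries. Elane was at 0 in all mixed and luminal libraries, and Mpo did not exceed 0.0621 CPM in any library. Mmp8 had 0.203, 0.440 and 0.172 CPM in basal 1 to 3 and at most 0.0621 CPM in mixed and luminal libraries. Retnlg had 0.629 and 0.860 CPM in mixed 1 and mixed 2 and 0 in all other libraries. Ngp reached 2.34 CPM in mixed 3, and in basal 2 Ngp, Camp and Elane reached 0.936, 0.551 and 0.330 CPM. S100a8, which is not confined to granulocytes, stood at 12.5 to 25.8 CPM in mixed, 17.0 to 29.3 CPM in luminal and 0.456 to 3.69 CPM in basal libraries. S100a9, its partner, had 3.26, 2.34 and 5.55 CPM in mixed 1 to 3 and 3.41 CPM in basal 2, against 0 to 0.248 CPM in luminal libraries and 0 in basal 1 and basal 3. Mmp9, the gelatinase of granules and of other cells, had 0.163 to 0.572 CPM in mixed, 0 to 2.31 CPM in luminal and 0 to 0.230 CPM in basal libraries. The part of neutrophils in the Ltf differences was not tested.

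The milk fat globule genes shared their high level in luminal aggregates but parted in mixed ones. Btn1a1 codes for butyrophilin, the main membrane protein of the globule (chromosome 13, 23641162 to 23650071, minus strand). It had 172, 165 and 235 CPM in mixed 1 to 3, 303, 197 and 232 CPM in luminal 1 to 3, and 22.1, 14.9 and 16.9 CPM in basal 1 to 3. Mixed and luminal libraries overlapped, and every one of them was above every basal library. Against basal aggregates the difference was 3.76 ± 0.25 for luminal and 3.40 ± 0.24 for mixed (adjusted p = 9.26e-07 and 1.35e-05), and both calls held in all 18 alternatives. Mixed and luminal aggregates differed by -0.36 ± 0.22 (adjusted p = 0.24). The mixed level was 146% of the average of the luminal and basal means (129 to 164% over the alternatives), and it stayed above 100% under every alternative tried for it, which were library size scaling and each library left out in turn. On few counts and without such alternatives, the same measure was 631% for Wap, 309% for Csn1s2a and 294% for Csn2.

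Xdh codes for xanthine oxidoreductase, which anchors butyrophilin to the fat droplet during secretion (chromosome 17, 74190890 to 74257191, minus strand). Its levels were 49.2, 56.4 and 27.3 CPM in mixed 1 to 3, 389, 244 and 659 CPM in luminal 1 to 3, and 46.1, 22.4 and 39.8 CPM in basal 1 to 3. Luminal libraries lay far above the rest, and mixed and basal libraries overlapped. Luminal exceeded basal aggregates by 3.57 ± 0.42 and mixed stood below luminal by -3.28 ± 0.41 (adjusted p = 6.37e-05 and 0.00024). Mixed and basal aggregates differed by 0.29 ± 0.38 (adjusted p = 0.65). Mixed aggregates held 19.0% of the average of the luminal and basal means. In bulk RNA of this kind fewer cells of a type and less RNA per cell cannot be told apart.

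Set side by side, 5 of the 8 tested members were higher and 2 lower when luminal was set against basal aggregates: Lalba, Ltf, Btn1a1, Xdh and Wap were higher, Csn1s1 and Csn3 lower. Of all 18051 genes 12.8% were called higher and 14.4% lower in this comparison, 27.1% in all. The median log2 difference of the 8 members was 3.02, with Wap at its bound, against -0.02 for all genes. Wap and Lalba were tested only because of the kinds in which they were high, so these figures are a description. Of the other 6 tested members 3 were higher and 2 lower, with a median of 1.82. With library size scaling 35.0% of all calls were higher ones, against 47.0% with TMM. Within series B, where luminal 1 is set against basal 1 and basal 3, the log2 ratio of means was -5.21 for Csn1s1, -1.28 for Csn3, 6.48 for Lalba, 3.14 for Ltf, 3.96 for Btn1a1 and 3.18 for Xdh. Those signs are the same as over all libraries, of which these 3 are a part. All 7 calls held without basal 2, those of Wap and Lalba with the limit just given.

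In mixed against basal aggregates 4 members were higher, Lalba, Ltf, Btn1a1 and Wap, and Csn3 was lower. Of all genes 6.39% were called higher and 7.33% lower, 13.7% in all, and the members' median was 1.88 with Wap at its bound, against -0.07 for all genes. Without Wap and Lalba, 2 of 6 were higher and 1 lower, with a median of 0.97. The 1153 higher and 1324 lower genes behind these shares became 2627 and 2493 without basal 2, 706 and 470 without basal 1, and 558 and 405 without basal 3, and the lower ones 865 without mixed 2 and 838 without mixed 3. With library size scaling 33.6% of all calls were higher ones, against 46.5% with TMM. Within series A, with mixed 1 to 3 against basal 2 alone, the log2 ratio of means was -1.90 for Csn1s1, -2.73 for Csn3, 5.59 for Lalba, 4.21 for Ltf, 3.68 for Btn1a1 and 0.98 for Xdh. The 5 calls held without basal 2, although Wap and Lalba were again tested only because of the kinds in which they were high.

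In mixed against luminal aggregates Csn1s1 was higher and Csn3, Lalba, Ltf and Xdh were lower, while 15.2% of all genes were called higher and 14.2% lower, 29.4% in all. The members' median was -0.61, against -0.05 for all genes. The 2749 higher and 2560 lower genes became 1623 and 1620 without luminal 1 and 1550 and 1417 without luminal 3. With the series as a term, where this comparison is reached only through basal libraries, none of the 5 passed by edgeR's quasi-likelihood test (log2 difference 3.29 for Csn1s1, -1.45 for Csn3, -0.87 for Lalba, 1.07 for Ltf and -2.19 for Xdh; adjusted p = 0.13, 0.17, 0.88, 0.42 and 0.21). The comparisons share libraries and are not independent of each other.

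**Figure D2:**
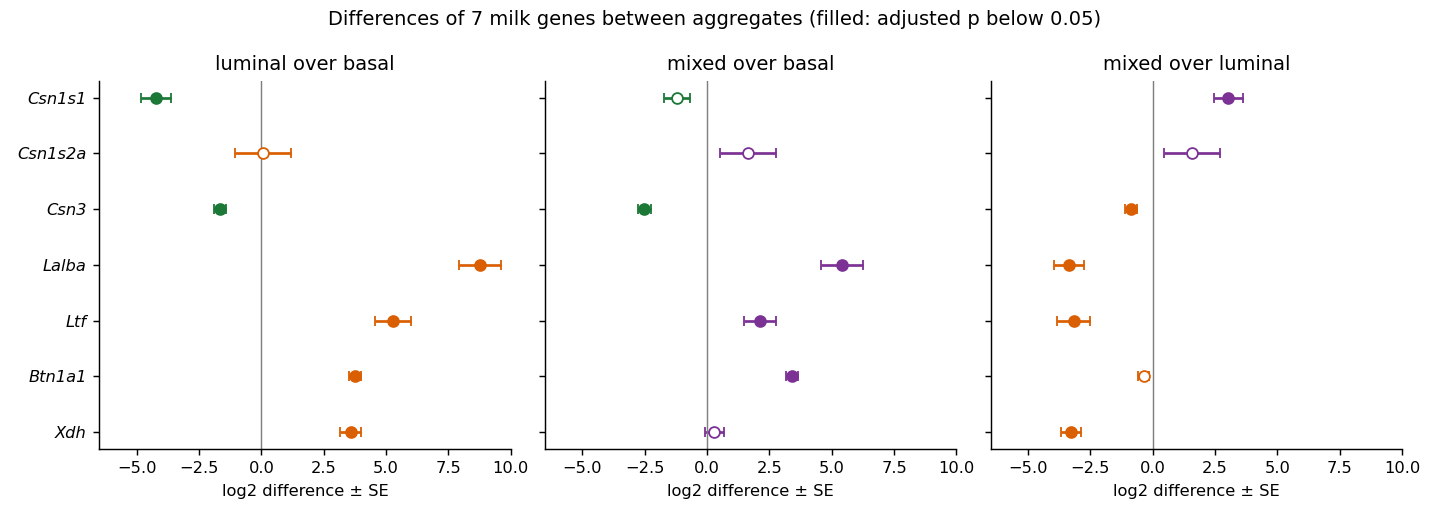
Log2 difference ± SE between kinds of aggregate for 7 tested milk genes in the 3 comparisons, filled where the adjusted p was below 0.05 and coloured by the kind with the higher level. Wap is left out because it had 0 counts in basal aggregates. Lalba passed the filter on low counts only through mixed and luminal libraries. Csn1s1 and Csn3 lie left of 0 in luminal over basal, at -4.24 and -1.65, and Lalba lies farthest right at 8.77.

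Scaled by exon length, the make-up of the milk transcripts differed between the kinds of aggregate. Per kilobase, Csn3 made up 88.7 to 94.9% of the summed level of the 10 genes in basal libraries, against 17.7 to 35.8% in mixed and 7.93 to 25.5% in luminal libraries. Ltf was the leading gene in luminal libraries with 32.0 to 62.3%, and Lalba added 6.57 to 27.1%. In mixed libraries Btn1a1 held 29.0 to 36.6% and Ltf 20.7 to 30.6%. Among the 18051 tested genes ranked by CPM per kilobase, Csn3 was number 280 in basal, Ltf number 168 in luminal and Btn1a1 number 1610 in mixed aggregates. Csn1s1 reached only 3.21 CPM per kilobase in basal aggregates, where Csn3 reached 218, and the same scale gave Csn2 0.0424. The 10 genes together took 492 to 571 CPM in mixed, 1411 to 3071 CPM in luminal and 910 to 1128 CPM in basal libraries. All luminal libraries were thus highest in the sum, and all mixed libraries lowest.

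**Figure D3:**
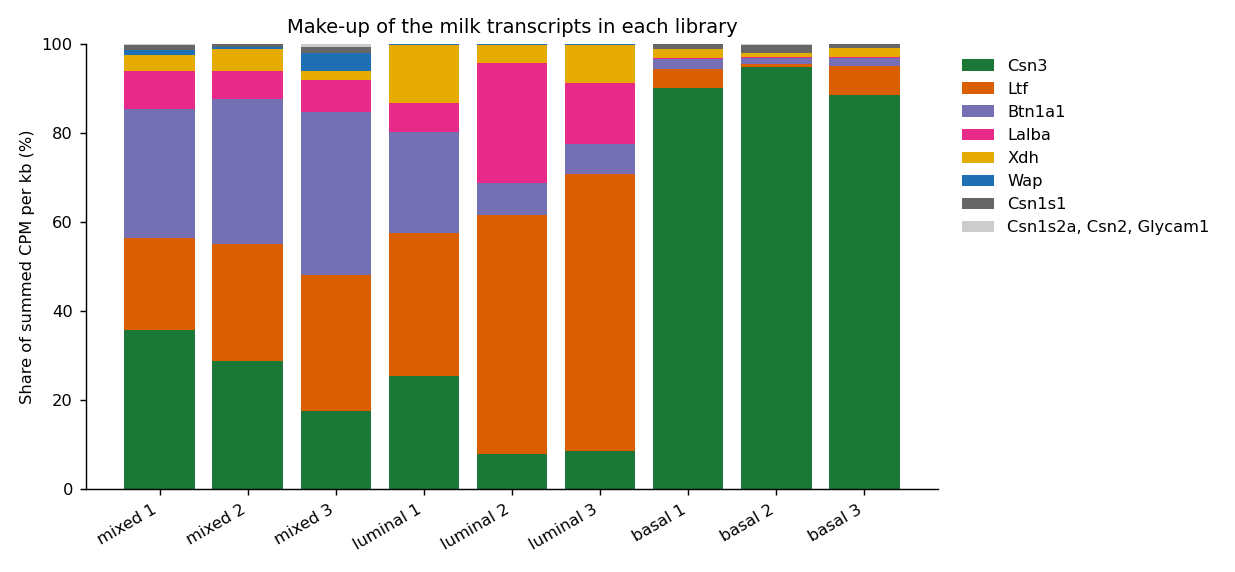
Share of each milk gene in the summed CPM per kilobase of the 10 genes, as a stacked bar for every mixed, luminal and basal library. Csn3 fills 88.7 to 94.9% of the basal bars, and Ltf is the widest part of the 3 luminal bars.

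The 4 casein genes lie on chromosome 5 within 266 kb, in a cluster with 13 gene names of which 11 had a count in some library. Csn1s1 and Csn3, at its ends, were both highest in basal aggregates, while Csn3 was lowest in mixed and Csn1s1 lowest in luminal libraries. Between them Csn1s2b, the other alpha-S2-type casein, named here after its values were seen, stood at 0.116 ± 0.0588 CPM in mixed, 0.839 ± 0.492 CPM in luminal and 0.829 ± 0.352 CPM in basal aggregates (SD, n = 3 each). Odam, a secreted protein of tooth and junctional epithelium, had 0.755, 0.830 and 0.497 CPM in luminal 1 to 3 and 5.42, 14.3 and 6.60 CPM in basal 1 to 3, without overlap. The difference was -3.64 ± 0.96 (adjusted p = 0.015), and -3.11 without basal 2 (adjusted p = 0.051), and it did not pass with the series as a term (adjusted p = 0.29). Of the wider list of 21 genes in and beside the cluster, 13 were tested, members Csn1s1, Csn1s2a and Csn3 included. In luminal against basal aggregates 1 was higher, Amtn, and 4 lower, in mixed against basal Csn3 alone was called, as lower, and in mixed against luminal 3 were higher and 2 lower. Amtn stood at 1.86 to 3.32 CPM in luminal libraries and at 0.330 CPM in basal 2, with no count in any other library. It passed the filter only through luminal libraries, so its calls support nothing beyond the counts. Over all genes 12.8% and 14.4%, 6.39% and 7.33%, and 15.2% and 14.2% were called higher and lower in these comparisons. With the series as a term the counts were 1 higher and 3 lower in luminal against basal, Csn3 alone in mixed against basal, and none in mixed against luminal by edgeR's quasi-likelihood test, with 4 of 13 below 0.05 before adjustment (DESeq2 without that term called 5 higher and 3 lower). Without basal 2 the counts for mixed against basal were 3 higher and 1 lower, and for mixed against luminal 5 higher and 2 lower.

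**Figure D4:**
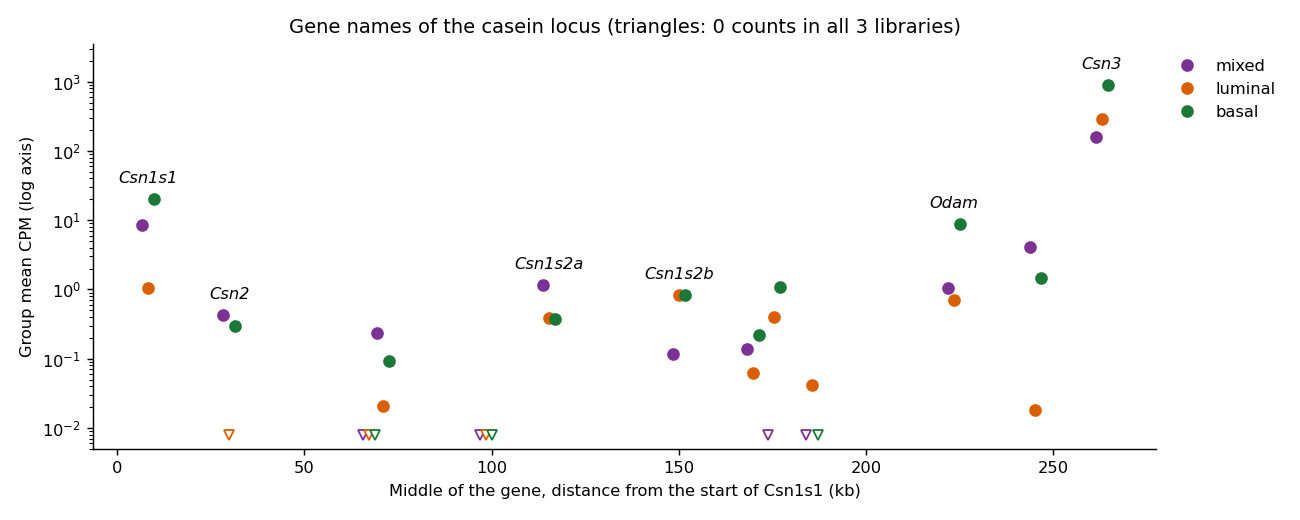
Group mean CPM, on a log axis, of the 13 gene names of the casein cluster, placed by the distance of the gene's middle from the start of Csn1s1 in kb and spread slightly sideways by kind of aggregate. Csn3, at the right end, and Csn1s1, at the left end, stand highest in basal aggregates, and the genes between them stay below 10 CPM.

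The prolactin receptor and its STAT5 factors, like Elf5, were lowest in basal aggregates, where Csn1s1 and Csn3 were highest. Prlr, the prolactin receptor, stood at 624, 623 and 542 CPM in mixed 1 to 3, 428, 697 and 589 CPM in luminal 1 to 3, and 80.3, 56.8 and 78.0 CPM in basal 1 to 3. Basal libraries were lowest without overlap. Its difference from basal was 2.99 ± 0.22 for luminal and 3.06 ± 0.23 for mixed aggregates (adjusted p = 2.38e-06 and 1.6e-05). Elf5, the alveolar transcription factor, had 161, 170.1 and 173 CPM in mixed, 166, 150.1 and 131 CPM in luminal, and 22.5, 29.7 and 25.3 CPM in basal libraries. It differed from basal by 2.53 ± 0.17 in luminal and by 2.70 ± 0.17 in mixed aggregates. Between mixed and luminal aggregates neither passed (Prlr 0.06 ± 0.21, Elf5 0.17 ± 0.16, adjusted p = 0.85 and 0.44).

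STAT5 is encoded by a pair of neighbouring genes. Stat5a had 159, 148 and 121 CPM in mixed, 186, 237 and 328 CPM in luminal, and 64.4, 28.7 and 56.9 CPM in basal libraries. Luminal libraries were highest, mixed ones in between and basal ones lowest, without overlap. Luminal exceeded basal aggregates by 2.32 ± 0.30 and mixed exceeded basal by 1.51 ± 0.30 (adjusted p = 0.00015 and 0.0075), while mixed against luminal did not pass (-0.81 ± 0.29, adjusted p = 0.055). Stat5b was higher by 1.50 ± 0.25 in luminal and by 0.87 ± 0.25 in mixed than in basal aggregates. Jak2, the kinase at the receptor, was higher in luminal than basal aggregates by 1.10 ± 0.27 (adjusted p = 0.01) and at 0.50 ± 0.27 in mixed against basal (adjusted p = 0.24). The luminal call of Jak2 was lost with the series as a term.

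The STAT5-induced feedback inhibitors split. Cish was higher in luminal than in basal aggregates by 1.18 ± 0.34 (adjusted p = 0.022), a call lost with the series as a term (0.51, adjusted p = 0.43). Socs2 had 39.3, 35.0 and 49.5 CPM in mixed, 12.2, 16.4 and 15.4 CPM in luminal, and 44.1, 66.0 and 42.9 CPM in basal libraries. Luminal libraries were lowest without overlap, as for Csn1s1. It differed by -1.80 ± 0.24 between luminal and basal and by 1.49 ± 0.23 between mixed and luminal aggregates (adjusted p = 0.00015 and 0.0011), and the second call was lost with the series as a term (adjusted p = 0.22). The glucocorticoid receptor gene Nr3c1 passed in none of the 3 comparisons, with 0.24 ± 0.19 for luminal from basal, 0.36 ± 0.19 for mixed from basal and 0.13 ± 0.19 for mixed from luminal aggregates. Gata3, a luminal lineage factor, was higher in luminal and in mixed than in basal aggregates by 1.33 ± 0.17 and 1.41 ± 0.17.

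**Figure D5:**
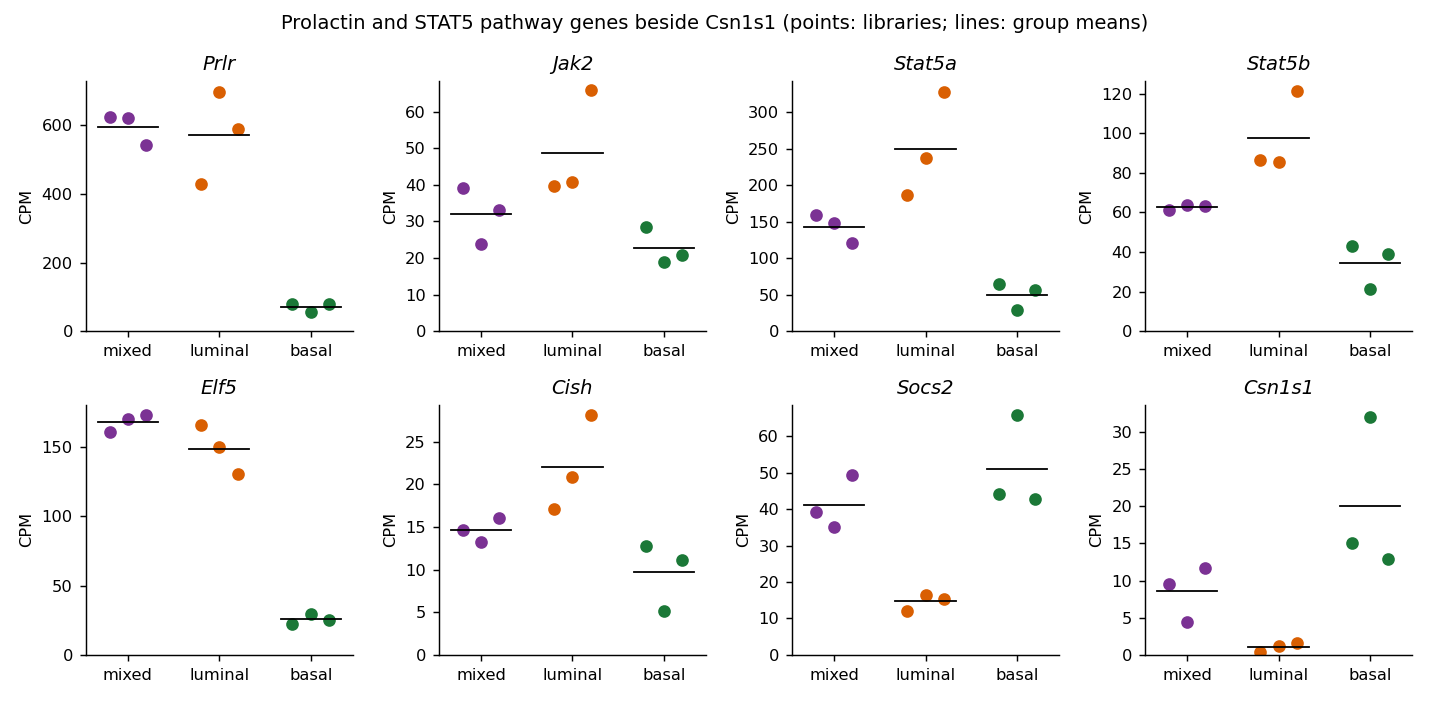
CPM by library of 7 genes of the prolactin and STAT5 pathway and of Csn1s1 in mixed, luminal and basal aggregates, with points for libraries and lines for group means. Prlr, Jak2, Stat5a, Stat5b, Elf5 and Cish have their lowest means in basal aggregates, while Socs2 and Csn1s1 have their lowest in luminal aggregates.

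Across the 24 genes listed for this pathway, 22 were tested. In luminal against basal aggregates 11 were higher and 4 lower, with a median log2 difference of 0.82. Mixed against basal aggregates gave 10 higher and 2 lower (median 0.55), and mixed against luminal 3 higher and 2 lower (median 0.10). Over all genes 12.8% and 14.4%, 6.39% and 7.33%, and 15.2% and 14.2% were called higher and lower in these comparisons. In mixed against luminal aggregates the list thus lay below both shares. Among the lower ones in luminal aggregates were Cav1, the caveolin that restrains JAK2 in mammary cells (-3.97 ± 0.19), and the cyclin gene Ccnd1 (-3.70 ± 0.35). The counts with the series as a term were 10 and 3 in luminal against basal, 7 and 2 in mixed against basal, and 2 in mixed against luminal, both higher.

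Other proteins of milk and its fat globule were mostly higher in luminal aggregates. Of 21 tested, 13 were higher and 2 lower in luminal against basal aggregates (median 1.40), 8 higher and 2 lower in mixed against basal (median 0.70), and 2 higher and 10 lower in mixed against luminal (median -0.82). Shares called higher and lower over all genes were 12.8% and 14.4%, 6.39% and 7.33%, and 15.2% and 14.2%, in the same order. Muc1, an apical mucin of the globule membrane, was higher than in basal by 5.76 ± 0.21 in luminal and by 5.20 ± 0.20 in mixed aggregates. Cel, the bile-salt-stimulated lipase of milk, was higher by 4.99 ± 0.62 and 4.17 ± 0.61 in the same comparisons, and Pigr, which carries IgA into milk, by 4.97 ± 0.80 and 2.56 ± 0.74. Cel stood at 0.203, 0.606 and 0.402 CPM in basal 1 to 3, on few counts, and passed the filter through mixed and luminal libraries. Its calls as higher than basal are therefore a description. The same holds for Pigr, which stood at 0.304, 3.47 and 1.15 CPM in basal 1 to 3. Calls of Cel and Pigr in mixed against basal were lost with the series as a term (adjusted p = 0.063 and 0.43). Wfdc18, a small secreted protein with a WAP-type domain, was highest in mixed aggregates, by 3.50 ± 0.33 over basal and 1.23 ± 0.31 over luminal aggregates. Spp1, osteopontin, was lower than in basal by -1.13 ± 0.28 in luminal and by -1.52 ± 0.28 in mixed aggregates. Slpi, a protease inhibitor, was lower by -2.13 ± 0.40 in luminal than in basal aggregates. Cidea, a lipid droplet protein, was lower by -3.15 ± 0.73 in mixed than in luminal aggregates. With the series as a term 2 passed in mixed against luminal, both lower, and the calls of Wfdc18 and Cidea in that comparison were lost.

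Genes for lactose synthesis and mineral transport had more higher than lower calls against basal aggregates, with 8 of 18 higher and 1 lower in luminal against basal aggregates, 5 higher and 2 lower in mixed against basal, and 1 higher and 6 lower in mixed against luminal. Their medians were 0.48, 0.07 and -0.49. Shares called higher and lower over all genes were 12.8% and 14.4%, 6.39% and 7.33%, and 15.2% and 14.2%, in the same order. Slc34a2, a phosphate carrier, was higher than in basal by 4.09 ± 0.82 in luminal and 3.60 ± 0.81 in mixed aggregates. It stood at 0.962, 0 and 2.35 CPM in basal 1 to 3 and passed the filter through mixed and luminal libraries, so these calls are a description. Hexokinase 2 (Hk2) was higher by 2.10 ± 0.24 and 2.31 ± 0.25. Slc12a2, a sodium-potassium-chloride carrier, was higher by 2.68 ± 0.27 and 1.73 ± 0.26. Fam20c, the kinase that phosphorylates caseins in the secretory pathway, was lower in mixed than in basal by -2.24 ± 0.34 and than in luminal aggregates by -1.65 ± 0.34. The calls of Fam20c against luminal aggregates and of the 6 other genes in that comparison were lost with the series as a term.

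Genes of milk fat synthesis divided. Of 26 tested, 5 were higher and 12 lower in luminal against basal aggregates (median -0.20), 1 higher and 6 lower in mixed against basal (median -0.29), and 8 higher and 7 lower in mixed against luminal (median 0.07). Shares called higher and lower over all genes were 12.8% and 14.4%, 6.39% and 7.33%, and 15.2% and 14.2%, in the same order. The stearoyl-CoA desaturase gene Scd1 was higher by 3.31 ± 0.33 in luminal than in basal and lower by -3.54 ± 0.33 in mixed than in luminal aggregates. Thrsp, a regulator of lipid synthesis, moved likewise (2.55 ± 0.39 and -2.95 ± 0.40). The desaturase genes Fads2 and Fads1 were lower by -2.76 ± 0.22 and -2.12 ± 0.27 in luminal than in basal aggregates, and Insig1, a sterol sensor partner, by -2.25 ± 0.28. In the fit with the series 1 passed in mixed against basal, as lower, and 3 higher and 1 lower in mixed against luminal, where the call of Thrsp was lost.

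Genes that rise after weaning, when STAT3 signalling and cell clearance follow milk stasis, were also mostly higher in luminal aggregates. Of 22 tested, 16 were higher and 2 lower in luminal against basal aggregates (median 1.34), 10 higher and 1 lower in mixed against basal (median 0.74), and 3 higher and 13 lower in mixed against luminal (median -0.67). Shares called higher and lower over all genes were 12.8% and 14.4%, 6.39% and 7.33%, and 15.2% and 14.2%, in the same order. Cd14, a co-receptor for lipopolysaccharide that luminal progenitors also express, was higher than in basal by 5.34 ± 0.29 in luminal and 4.35 ± 0.28 in mixed aggregates. Clu, a secreted chaperone, was higher by 4.04 ± 0.26 and 2.18 ± 0.24, and Igfbp5, an IGF-binding protein, by 3.65 ± 0.20 and 2.90 ± 0.19. The stromelysin gene Mmp3 was lower in luminal than in basal aggregates by -3.19 ± 0.70, a call lost with the series as a term. Mmp3 stood at 0.237 to 0.311 CPM in luminal libraries and passed the filter on low counts only through the other kinds, so its call supports nothing beyond the counts. In that fit 1 was higher and 2 lower in mixed against luminal. Luminal progenitor markers were higher in the same libraries, with 9 of 11 called higher in luminal and in mixed than in basal aggregates. They summed to 3530 to 4253 CPM in mixed, 3978 to 4395 CPM in luminal and 844 to 869 CPM in basal libraries. Of 11 tested hormone-sensing luminal markers 7 were likewise called higher in both comparisons, with 1 lower in luminal against basal. All 12 on that list summed to 1581 to 2013 CPM in mixed, 1516 to 2589 CPM in luminal and 450 to 575 CPM in basal libraries. The part of either type of luminal cell in the milk gene differences was not tested.

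Genes with the most similar course over the 9 libraries differed from member to member. By Pearson's r of log2 CPM, a description without a test over libraries that share groups and series, Csn1s1 was closest to Neto2 (0.991), Atad5 (0.987) and Socs2 (0.979). Csn3 was closest to 4931406C07Rik (0.977), Fbln5 (0.968) and Extl1 (0.968). Lalba ran with Tfcp2l1 (0.991), Cd164l2 (0.989) and Tnfsf13os (0.982), and Ltf with Slc5a5 (0.982), Spint1 (0.980) and Junos (0.979). Btn1a1 ran with Muc1 (0.993), Cxadr (0.990) and Igfbp5 (0.990), and Xdh with Psap (0.994), Fam234b (0.993) and Atp6v1b2 (0.991). The closest genes were Cert1 for Wap (0.978) and Rabggtb for Csn1s2a (0.950), both on few counts. No member was among the 3 closest genes of another. For Wap, Csn1s2a, Csn2 and Glycam1 this was fixed beforehand, since only tested genes averaging at least 5 CPM could be listed.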

How the data were processed

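RNA of 3 mixed, 3 luminal and 3 basal libraries was extracted with a micro-input kit and made into stranded mRNA libraries, per the labels' protocols. The authors deposited raw counts per gene name with the summed exon length in bases. Reads were handled with Trim Galore and Subread, per the submitters' processing notes, and counted as read pairs over exons with featureCounts 2.0.1 on mm39, per the file headers. Strand was not used and multi-mapping reads were not counted, per the file headers. No exon base of a member is shared with another gene name. The sources used here state neither the annotation release nor the aligner settings.

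Counts were fitted in R 4.3.3 with edgeR 4.0.16: filterByExpr with the 3 groups, TMM scaling, all 9 libraries in 1 model with 6 residual degrees of freedom, and the robust quasi-likelihood test, two-sided. P-values were adjusted by Benjamini-Hochberg over the 18051 genes of each comparison, with a threshold of 0.05. The SE is the log2 difference divided by the square root of the test's F. CPM use no pseudocount and are counts relative to the TMM-scaled library size. The make-up of the milk transcripts and the ranks of genes are given per kilobase of exon. Sums over members or marker lists, and the parts of single genes in them, are in CPM without that scaling. Folds against a group at 0 use 3 counts per library. The fit was tested on simulated data. Reads carried no molecular identifiers.

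Members and gene lists were chosen with earlier results of these data known. All 10 members are named. From each other list, up to 3 called genes with the highest and lowest differences per comparison could be named, besides a set of pathway and marker genes. Likeness was taken on log2 CPM (prior count 2) among genes averaging at least 5 CPM. Alternatives were other scalings and filters, DESeq2 1.42.0, limma-voom in limma 3.58.1, fits of only the 2 groups compared, a replicate block, the column-name series as a term (4 residual degrees of freedom) and each library left out in turn. Percent of the average of both pure groups and a block by the number in the descriptions were added after the data were seen.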

Additional observations from a re-analysis of the deposited data

How the results depend on the processing

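Of the log2 differences of single members under the alternatives, 399 kept direction and call, 22 lost the call, 1 gained it and 4 changed direction. The changes of direction were Csn1s2a in luminal against basal, at -0.016 with library size scaling and at -0.51 to 0.78 over single libraries left out, below 0 without basal 1 (-0.33) and luminal 2 (-0.51), none of them called, and Ltf in mixed against luminal, at 1.07 with the series as a term. In luminal against basal 5 members stayed higher except with the series as a term and with only the 2 groups compared, which lost Wap, and with limma-voom, which lost Lalba. In mixed against basal the fit of only the 2 groups compared left 2 members higher, and no filter on low counts gave 2 lower members, with Csn1s1 added. In mixed against luminal the series as a term left 0 members higher and 0 lower by edgeR's quasi-likelihood test (3 of 8 below 0.05 before adjustment, and 1 higher and 4 lower by DESeq2 without that term), and no filter gave 2 higher, with Csn2 added. Leaving out 1 library gave 3 to 4 members higher in mixed against basal and 3 to 4 lower in mixed against luminal.

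Counts over all genes moved more. With the series as a term 1280 were higher and 1227 lower in luminal against basal, 529 and 324 in mixed against basal, and 370 and 121 in mixed against luminal, against 2304 and 2595, 1153 and 1324, and 2749 and 2560. In mixed against basal DESeq2 called 2340 lower and no filter 2190. Leaving out 1 library gave 558 to 2627 higher and 405 to 2493 lower there, the lowest without basal 3 and the highest without basal 2. The counts were 706 higher and 470 lower without basal 1, 865 lower without mixed 2 and 838 lower without mixed 3. In mixed against luminal it gave 1550 to 3400 higher and 1417 to 3374 lower, with 1623 and 1620 without luminal 1 and 1550 and 1417 without luminal 3. With library size scaling the share of higher calls was 35.0% in luminal against basal and 33.6% in mixed against basal, against 47.0% and 46.5%, and the median of all genes was -0.17 and -0.22. With the series as a term it was 62.0% in mixed against basal and 75.4% in mixed against luminal, against 51.8%. The causes were not tested.

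Libraries with the same title number were not clearly more alike than others (r of -0.17 to 0.20, and 4 of 9 correlated best with their own number). With 3 libraries of each kind this does not show a pairing by title number and cannot exclude one. With the title number as replicate block the member calls were the same, 5 higher and 2 lower, 4 and 1, and 1 and 4. Over all genes the block gave 2154 and 2394, 1119 and 1008, and 2695 and 2311. The descriptions number the libraries otherwise: mixed 1, 2 and 3, luminal 3, 7 and 8, and basal 1, 3 and 4. By these numbers mixed and basal aggregates share 2 pairs (r = 0.057 and 0.19), too few to show a pairing, and luminal aggregates share 1 with each. With the description number as replicate block, an alternative chosen after seeing the data and fitted to mixed and basal libraries with 1 residual degree of freedom, 3 members were higher and 1 lower, and 530 genes higher and 546 lower, against 2 and 1, and 994 and 944, in the same libraries without the block. Depth limits Csn2, Glycam1, Csn1s2a and the basal values of Wap and Lalba, which rest on few or no counts, and the 3 counts taken as a floor cover counting error only.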
